A study of Mus musculus with 4 samples.

Results

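The genes described here encode enzymes that break down amino acids in the liver. They were taken from a list of 43 symbols, and a gene counted as measured where the array annotation named it as the only gene of at least 1 probe. That held for 41 of the 43, out of 19087 genes on the array. Amt, a subunit gene of the glycine cleavage system, and Amdhd1, a gene of histidine breakdown, were not measured. The list writes the methylmalonyl-CoA mutase gene as Mut, and the annotation gives it under its present symbol, Mmut. Of the 41 genes, 27 had 1 probe and 14 had 2 or 3 probes, which were averaged.

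Liver RNA was compared on 4 arrays that each carry 2 RNA samples with different dyes. One side was a male C57Bl/6 mouse aged 9 months with a nonfunctional helicase domain of Wrn, a RecQ family DNA helicase, that had received resveratrol, a plant polyphenol. The other side was an untreated male wild-type mouse of the same strain and age. The 4 mutants were different animals, whereas only 2 wild-type animals were used: animal 2 served for arrays 1 and 3, and animal 4 for arrays 2 and 4. Mutant RNA was in the Cy5 channel for arrays 1 and 2, and in the Cy3 channel for arrays 3 and 4. All animals were kept on a reversed light-dark cycle with free access to food. Genotype and treatment differed together, so an effect of one cannot be told apart from an effect of the other. Dose, route and duration of the resveratrol treatment are unknown here, as is whether the samples of one side were littermates.

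Each amino acid has its own route of breakdown, and most of these routes run in hepatocytes. Nitrogen is passed to glutamate and on to urea, and the carbon skeletons enter the citric acid cycle or become acetyl-CoA, glucose or ketone bodies. Several routes also supply other pathways: tryptophan breakdown leads to NAD, serine, glycine and histidine feed folate-bound one-carbon units, and cysteine gives taurine. Amino acid catabolic genes in liver are known to respond to feeding, glucocorticoids and glucagon.

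A value is the log2 of the ratio between the dyes of a probe as the authors deposited it, so 1 is a 2-fold difference. The base of the logarithm is not stated and was taken as 2, on which every fold below rests. Positive values probably stand for more RNA in the mutant, judged from how the series is titled and how its channels are ordered, and this was not settled by the dyes. No source used here states whether the ratios of arrays 3 and 4 were already turned for their swapped dyes, and the values were used as deposited. The ratios give no level, so it is not known which probes lay above background, the presence of liver markers was not checked, and fewer cells of a type and less RNA per cell cannot be told apart. Over all probes the array medians ran from -0.01 to 0.01 and the SDs from 0.66 to 0.90, and a positional trend held 12.2% to 34.1% of the variance of an array. Wrn itself had a mean of 0.12 ± 0.73 (SD, n = 4 arrays), with 4 probes whose means lay between -0.50 and 0.57. Where these probes lie relative to the altered helicase domain is unknown here, so the values say nothing on the genotype labels.

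None of the 41 amino acid catabolism genes passed limma's test after Benjamini-Hochberg adjustment over all genes at a threshold of 0.05, where 0.246% of all genes passed (47 of 19087, with 0.0786% of all genes higher and 0.168% lower). The lowest adjusted p among the 41 was 0.139. At an unadjusted p under 0.05 there were 10 of the 41, or 24.4%, against 6.64% of all genes. Of these, 7 had positive means (Prodh, Haao, Ftcd, Shmt2, Uroc1, Acadsb and Aldh4a1), against 3.1% of all genes with such a p and a positive mean, and 3 had negative means (Aass, Csad and Agxt), against 3.55%. Among these 10 genes only Aldh4a1 had more than 1 probe. The ratio had one sign on all 4 arrays for 22 of the 41 genes, 15 above 0 and 7 below, or 53.7%, against 15.9% of all genes, 7.69% above 0 and 8.16% below. The genes on the array include many that may be silent in liver, so this background is not one of liver genes. Among the 15 genes above 0 on every array, Hgd at 2.3e-05 on array 1 and Gstz1 at 0.00079 on array 2 were close to 0. The median size of the mean log2 ratio, whatever its sign, was 0.38 over the 41 genes and 0.19 over all genes. A mean over 1 in size was found for 0 of 41 genes and for 1.81% of all genes.

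Over the 41 genes the median log2 ratio was 0.17, with 28 means above 0 and 13 below. Over all genes the median was -0.0046, with 9412 means above 0. The median over the 41 genes was 0.061 on array 1, 0.11 on array 2, 0.25 on array 3 and 0.12 on array 4. The 95% confidence interval of a gene's mean had a median half-width of 0.48, and for 26 of the 41 genes the interval lay wholly between -1 and 1. For the other 15 genes the interval reached a 2-fold difference, so a difference of that size lay within the interval.

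**Figure D1:**
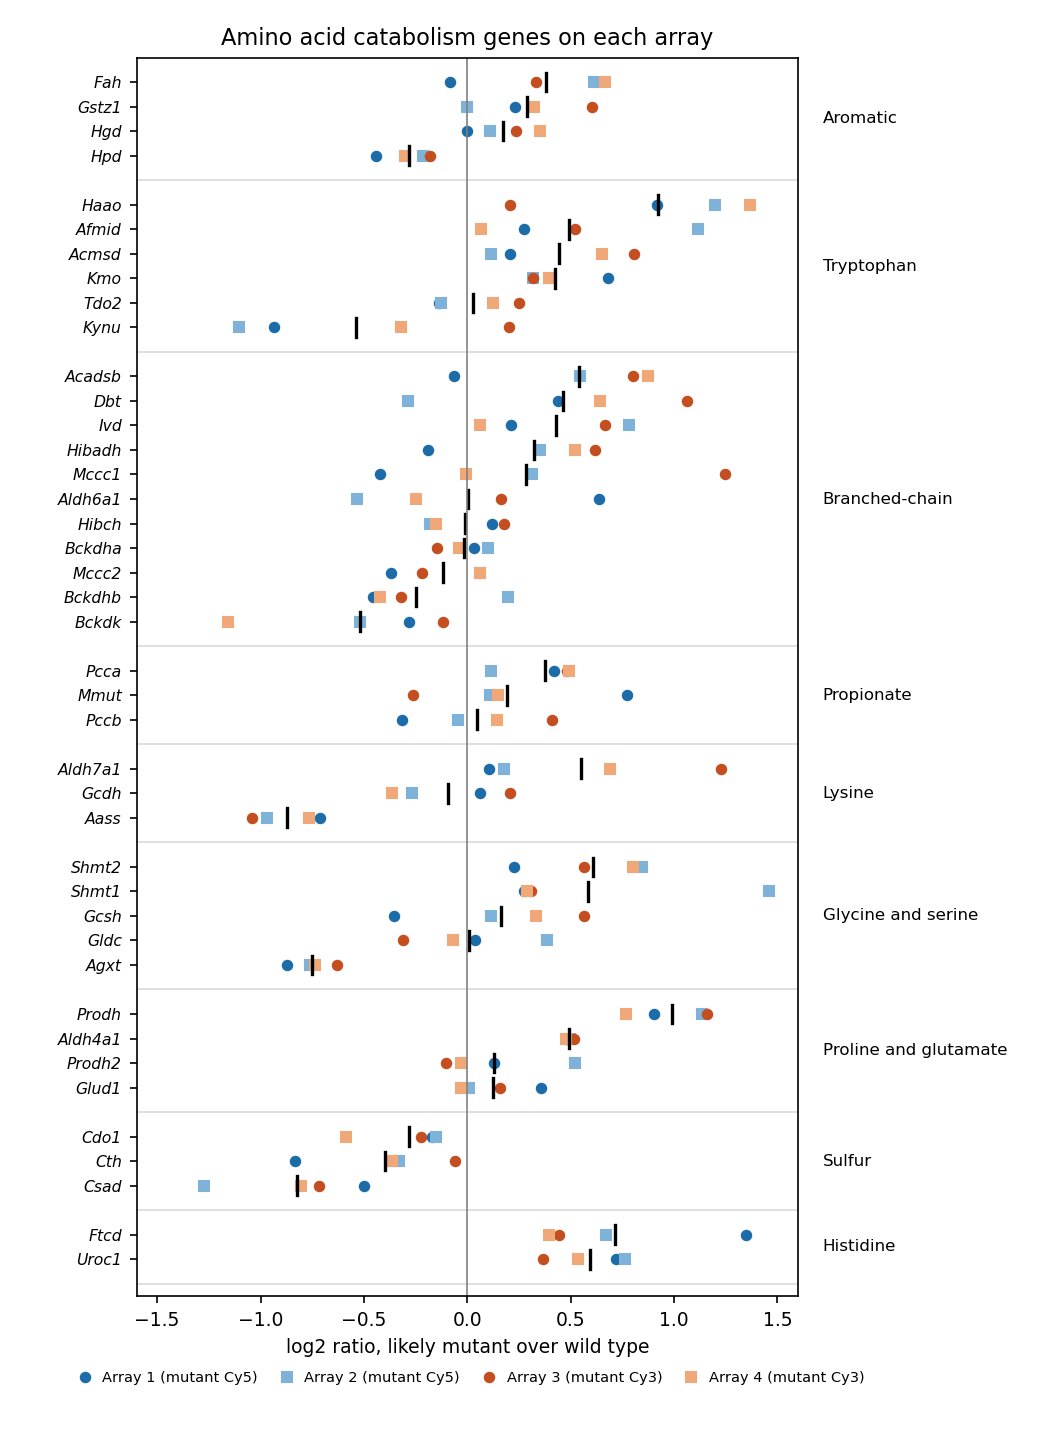
Log2 ratios (horizontal axis, likely mutant over wild type) of the 41 amino acid catabolism genes, grouped by branch. Points are the 4 arrays, blue where the mutant carried Cy5 and orange where it carried Cy3, circles for wild-type animal 2 and squares for wild-type animal 4, and black bars are means over the 4 arrays. Prodh, Aldh4a1, Ftcd and Uroc1 lay above 0 on every array, and Aass, Agxt and Csad below 0.

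The values depend on how arrays 3 and 4 are read. With the signs of these arrays turned, as they would be read if the deposited ratios were Cy5 over Cy3, 0 of the 41 genes had an unadjusted p under 0.05 (limma), against 7.95% of all genes, and 5 of 41 had one sign on all 4 arrays, against 17.4%. In that reading 0 genes of the whole array passed the adjusted threshold, and 1518 had an unadjusted p under 0.05. Of the 10 genes with such a p as deposited, all had a mean between -0.30 and 0.30 when turned. Prodh moved from 0.99 to 0.029 and Aass from -0.87 to 0.032. Kynu kept a mean of -0.48, and Aldh7a1 stood at -0.41. Over all probes, Pearson's r as deposited averaged 0.20 between arrays with the same dyes and -0.0082 between arrays with opposite dyes. It was -0.18 between arrays 1 and 3, which share a wild-type animal. After subtraction of the positional trend the averages were 0.22 and 0.096. Which of these readings holds cannot be told from the sources used here, so each direction given below is that of the ratios as deposited.

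**Figure D2:**
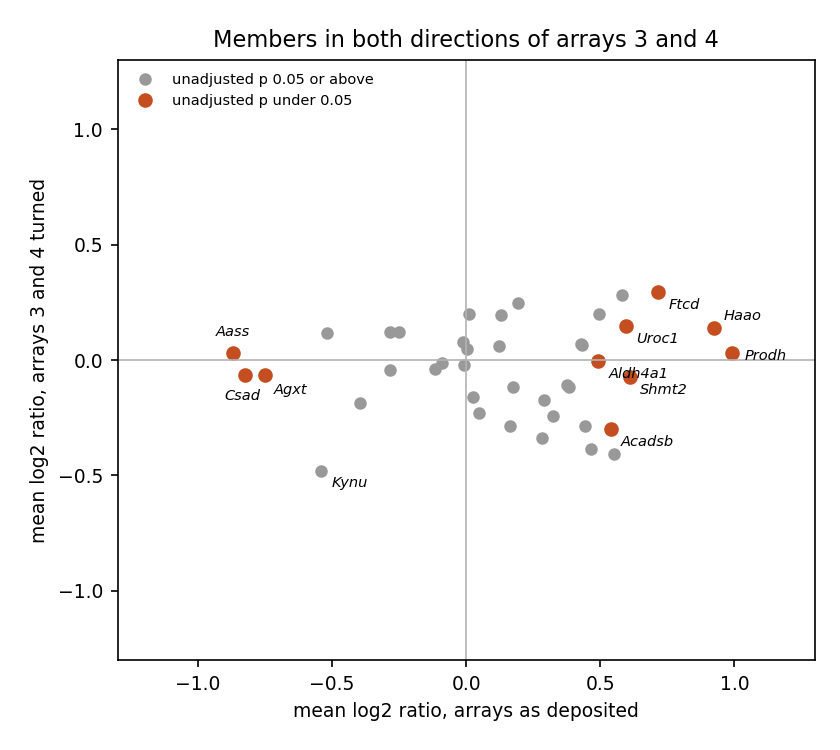
Mean log2 ratio of each of the 41 genes with the arrays as deposited (horizontal axis) and with arrays 3 and 4 turned (vertical axis). Orange points are the 10 genes with an unadjusted p under 0.05 as deposited, which spread from -0.87 to 0.99 along the horizontal axis and from -0.30 to 0.30 along the vertical axis.

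The promoters of the 3 genes with the lowest p, Prodh, Aass and Agxt, are shown to give the sequence context from which 1 gene with positive and 2 genes with negative ratios start. They come from RefSeq (build GRCm38.p6) and run from 250 bases before to 50 bases after an annotated start, 5′ to 3′ along the gene. Capitals mark matches on either strand to any of 6 short motifs. AGGTCA is the half-site of many nuclear receptors, and TGTTCT is the half-site of the glucocorticoid receptor. TGACGT is the half-site of the cAMP response element, and GTTAAT is the half-site of the liver factor HNF1. CCAAT and TATAAA are common elements of promoters.
Prodh, chr16:18089141-18089440, minus strand: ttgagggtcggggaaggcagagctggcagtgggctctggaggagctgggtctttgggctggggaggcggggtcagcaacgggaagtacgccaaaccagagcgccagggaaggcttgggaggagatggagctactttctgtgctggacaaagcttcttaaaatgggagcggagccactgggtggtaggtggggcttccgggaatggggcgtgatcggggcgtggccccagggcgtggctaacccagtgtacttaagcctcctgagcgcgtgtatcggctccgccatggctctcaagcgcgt
Aass, chr6:23132937-23133236, minus strand: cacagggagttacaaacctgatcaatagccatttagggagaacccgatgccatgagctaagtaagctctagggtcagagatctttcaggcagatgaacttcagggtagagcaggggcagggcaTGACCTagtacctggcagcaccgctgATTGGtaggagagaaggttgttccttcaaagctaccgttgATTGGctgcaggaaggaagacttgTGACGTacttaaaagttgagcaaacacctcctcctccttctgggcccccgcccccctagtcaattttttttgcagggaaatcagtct
Agxt, chr1:93134990-93135289, plus strand: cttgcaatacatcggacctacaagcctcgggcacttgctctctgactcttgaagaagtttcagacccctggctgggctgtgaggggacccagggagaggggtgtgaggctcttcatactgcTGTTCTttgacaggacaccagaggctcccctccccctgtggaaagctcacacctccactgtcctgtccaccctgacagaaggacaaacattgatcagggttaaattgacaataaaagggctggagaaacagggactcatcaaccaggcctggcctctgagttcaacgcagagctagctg
The Aass promoter held 1 match to AGGTCA, 2 to CCAAT and 1 to TGACGT, the Agxt promoter held 1 to TGTTCT, and the Prodh promoter held 0 matches to these letters. Promoters were found for 35 of the 41 genes (40 promoters, since some genes have more than 1 start). Of the 40, CCAAT occurred in 24, or 60%, against 37.4% of all 32851 promoters, and AGGTCA in 12, or 30%, against 16.3%. The others were closer to the background: TGTTCT in 7 (17.5% against 19%), TATAAA in 4 (10% against 13.6%), GTTAAT in 4 (10% against 7.1%) and TGACGT in 2 (5% against 7.51%). Among genes with an unadjusted p under 0.05, 4 promoters belonged to genes with negative means and 7 to genes with positive means. TGACGT occurred in 2 of the 4 and 0 of the 7, CCAAT in 2 and 2, and AGGTCA in 1 and 2. TGTTCT occurred in 1 and 1, TATAAA in 0 and 1, and GTTAAT in 0 and 2. These genes were picked by p from the same data, and the promoters are too few to compare the directions. A match is a description of letters and not a bound site.

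Proline breakdown held the gene with the lowest p of the 41. Prodh, the mitochondrial enzyme of the first step from proline, had log2 ratios of 0.91, 1.13, 1.16 and 0.77 on arrays 1 to 4. All were above 0, with a mean of 0.99 ± 0.19 (SD, n = 4 arrays), or 1.99-fold, and adjusted p = 0.139. Aldh4a1, which completes the conversion to glutamate, had 0.48, 0.50, 0.52 and 0.48. This was the narrowest spread of the 41 genes, at 0.49 ± 0.02 and adjusted p = 0.642, and both of its probes lay above 0 on every array, with means of 0.32 and 0.66. Prodh2, whose product acts on hydroxyproline, had a mean of 0.13 with arrays on both sides of 0, and its 2 probes had means of 0.12 and 0.14. Glud1, the glutamate dehydrogenase through which amino nitrogen is released as ammonia, had the lowest mean of the branch, with 0.36, 0.01, 0.16 and -0.03 and a mean of 0.12 ± 0.17.

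Both measured members of the histidine branch of the list had positive ratios on every array. Uroc1, which encodes urocanase, had 0.72, 0.76, 0.36 and 0.54, a mean of 0.60 ± 0.18 (SD, n = 4 arrays) and adjusted p = 0.539. Ftcd, whose product moves the formimino group of histidine to folate, had 1.35, 0.67, 0.45 and 0.40. Its mean was 0.72 ± 0.44 with adjusted p = 0.562, and both arrays with mutant RNA in Cy5 were above both arrays with it in Cy3.

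In the kynurenine route of tryptophan, 4 of 6 genes lay above 0 on all 4 arrays. Tdo2, the dioxygenase of the first step, had a mean of 0.03 with arrays on both sides of 0. The next enzymes, the arylformamidase gene Afmid and the kynurenine hydroxylase gene Kmo, had means of 0.49 and 0.43 and lay above 0 on every array as means over probes, though 1 of the 2 Afmid probes was below 0 on array 1 and the other on array 3. Kynu, which encodes kynureninase, had the only negative mean of the route.
Its values were -0.93, -1.11, 0.20 and -0.32, a mean of -0.54 ± 0.60 (SD, n = 4 arrays) with adjusted p = 0.807. Arrays 1 and 2 were low and array 3 was above 0, and the 2 probes had means of -0.88 and -0.20. Haao, which opens the ring of 3-hydroxyanthranilate on the way to quinolinate and NAD, had 0.92, 1.20, 0.20 and 1.37. Its mean was 0.92 ± 0.51, or 1.90-fold, with adjusted p = 0.402, and array 3 was the low one. Acmsd, which acts on the product of Haao and leads it away from NAD, lay above 0 on every array at a mean of 0.44.

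The 3 listed genes of sulfur amino acid breakdown all had ratios below 0 on every array. The 8 other sulfur genes measured had a median of 0.24, with 5 means above 0 and 3 below. Csad, the decarboxylase that leads from cysteine sulfinate towards taurine, had -0.50, -1.27, -0.72 and -0.80. Its mean was -0.82 ± 0.33 (SD, n = 4 arrays), or 1.77-fold lower, with adjusted p = 0.342. Cdo1, the cysteine dioxygenase one step before Csad, had -0.17, -0.15, -0.22 and -0.59, with array 4 apart from the others and a mean of -0.28 ± 0.20. The cystathionine gamma-lyase gene Cth, which makes cysteine from cystathionine, had a mean of -0.40, with arrays from -0.83 to -0.06.

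Serine and glycine genes had means on both sides of 0. Shmt2, the mitochondrial serine hydroxymethyltransferase, had 0.23, 0.85, 0.56 and 0.80, a mean of 0.61 ± 0.28 (SD, n = 4 arrays) and adjusted p = 0.578. Its cytosolic counterpart Shmt1 had a similar mean of 0.58, which leaned on array 2 at 1.46 while the other arrays stood at 0.27 to 0.31. Agxt, the peroxisomal aminotransferase that turns glyoxylate into glycine, had -0.87, -0.76, -0.63 and -0.74. All 4 arrays lay close together below 0, at a mean of -0.75 ± 0.10, or 1.68-fold lower, with adjusted p = 0.295. The glycine cleavage genes Gldc and Gcsh had means of 0.01 and 0.16, with arrays on both sides of 0.

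Lysine breakdown held the lowest mean of the 41 genes. Aass, the bifunctional enzyme of the first 2 steps through saccharopine, had -0.71, -0.97, -1.04 and -0.76, a mean of -0.87 ± 0.16 (SD, n = 4 arrays), or 1.83-fold lower, with adjusted p = 0.208. Aldh7a1, which acts on the product of Aass, had 0.10, 0.18, 1.23 and 0.69. Its mean was 0.55 ± 0.52 with adjusted p = 0.789, and arrays 3 and 4 were both above arrays 1 and 2. One of its 2 probes lay below 0 on arrays 1 and 2 and the other lay above 0 on every array, with means of 0.39 and 0.71. The glutaryl-CoA dehydrogenase gene Gcdh lay on both sides of 0, with a mean of -0.09. The enzymes of this route thus had values in opposite directions, and none passed the adjusted threshold.

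Branched-chain amino acid breakdown was the largest group and had a median of 0.0048 over 11 genes. The dehydrogenase complex that commits leucine, isoleucine and valine to breakdown showed no common direction, with means of -0.01 for Bckdha and -0.25 for Bckdhb, which encode its E1 subunits, and 0.46 for Dbt, which encodes its E2 subunit. Bckdk, the kinase that switches the complex off, had the lowest mean of the branch.
Its values were -0.28, -0.52, -0.12 and -1.16, a mean of -0.52 ± 0.46 (SD, n = 4 arrays) with adjusted p = 0.787, all below 0 and array 4 lowest. Acadsb, an acyl-CoA dehydrogenase of isoleucine breakdown, had -0.06, 0.54, 0.80 and 0.87. Its mean was 0.54 ± 0.43 with adjusted p = 0.750, and array 1 alone lay below 0. Of the leucine genes, Ivd, the isovaleryl-CoA dehydrogenase, lay above 0 on every array with a mean of 0.43. The 2 subunit genes of methylcrotonyl-CoA carboxylase differed, with Mccc2 at -0.12 and Mccc1 at 0.28 ± 0.71 (SD, n = 4 arrays).
Mccc1 had -0.42, 0.31, 1.25 and -0.01, and the value of array 3 came from 1 of its 2 probes, which stood at 2.78 there against -0.28 for the other. The means of these 2 probes were 0.83 and -0.26. Hibch, Hibadh and Aldh6a1, which act on valine, had means of -0.01, 0.32 and 0.0048.

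Propionyl-CoA, which isoleucine and valine share with methionine and threonine as a product, is handled by 3 of the genes. Pcca and Pccb encode the subunits of propionyl-CoA carboxylase. Pcca had 0.42, 0.12, 0.48 and 0.49, all above 0, with a mean of 0.38 ± 0.18 (SD, n = 4 arrays) and adjusted p = 0.803. Pccb had -0.31, -0.04, 0.41 and 0.14, on both sides of 0, with a mean of 0.05 ± 0.31. Mmut, the mutase of the last step to succinyl-CoA, had a mean of 0.19, with 3 probes whose means lay between -0.04 and 0.62.

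The 4 genes of tyrosine breakdown had means from -0.28 to 0.38. Hpd, the dioxygenase that makes homogentisate, had -0.44, -0.21, -0.18 and -0.30, all below 0, with a mean of -0.28 ± 0.12 (SD, n = 4 arrays) and adjusted p = 0.855. The next enzymes, encoded by Hgd and Gstz1, had means of 0.17 and 0.29 and no array below 0. Fah, which completes the route to fumarate and acetoacetate, had -0.08, 0.61, 0.33 and 0.67. Its mean was 0.38 ± 0.34 with adjusted p = 0.828, and array 1 was the low one.

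Set side by side, the branch medians ran from -0.40 for the sulfur amino acids to 0.66 for histidine. Between them stood lysine at -0.09, the branched-chain amino acids at 0.0048, glycine and serine at 0.16, propionate at 0.19, the aromatic amino acids at 0.23, proline and glutamate at 0.31 and tryptophan at 0.44. On single arrays the sulfur median ran from -0.59 to -0.22, which lay below the array range of every other branch except lysine, at -0.36 to 0.21. The medians of tryptophan (0.22 to 0.28), proline and glutamate (0.23 to 0.51), and histidine (0.41 to 1.04) were above 0 on all 4 arrays, as were those of glycine and serine (0.036 to 0.39) and propionate (0.11 to 0.42). The aromatic range of -0.04 to 0.33 and the branched-chain range of -0.06 to 0.18 included 0. Branches held 2 to 11 measured genes, and no difference between them was tested. These medians are of the listed members only. For sulfur (0.24), proline and glutamate (-0.22) and the branched chain (-0.10), the median of other genes of the pathway had the opposite sign.

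**Figure D3:**
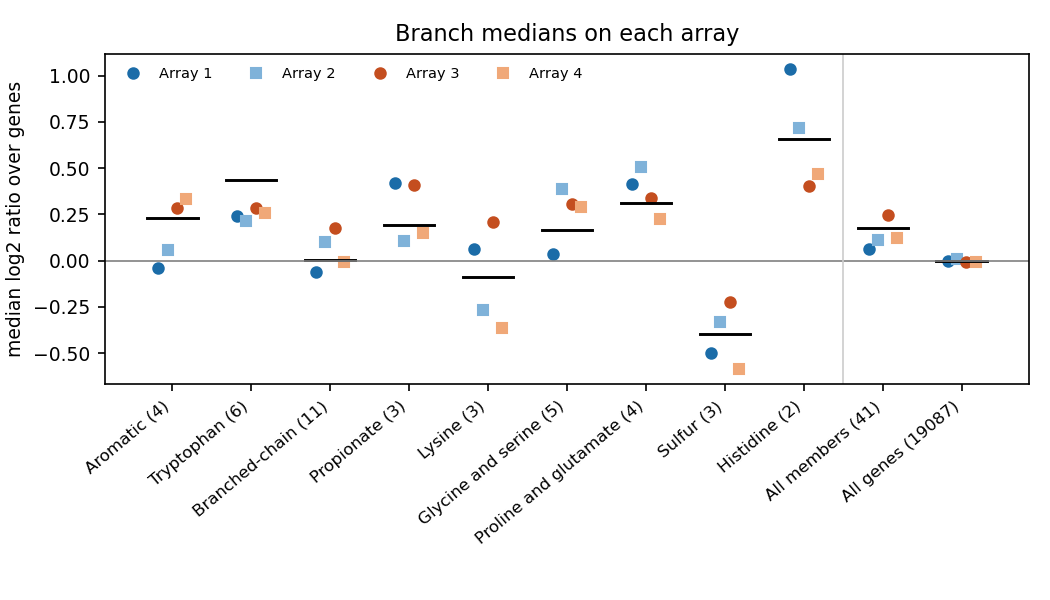
Median log2 ratio over the genes of each branch (vertical axis) on arrays 1 to 4, with the number of measured genes in parentheses and all 41 members and all 19087 genes at the right. Black lines are medians of the gene means over the 4 arrays. The median of the sulfur members lay below 0 on every array, at -0.59 to -0.22, and that of the histidine members above it, at 0.41 to 1.04.

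Other genes of the same pathways were also read, from a list of 71 of which 62 were measured. None passed the adjusted threshold, and 19, or 30.6%, had an unadjusted p under 0.05, against 6.64% of all genes. Of these, 15 had positive means, against 3.1% of all genes, and 4 had negative means, against 3.55%. With arrays 3 and 4 turned, 3 of the 62, or 4.84%, had such a p, against 7.95% of all genes, and the directions below are those as deposited. The median over the 62 genes was 0.07. By pathway it was 0.30 for aromatic, 0.30 for tryptophan, -0.10 for branched-chain and -0.06 for lysine genes. It was 0.24 for glycine and serine, -0.22 for proline and glutamate, 0.24 for sulfur and 0.47 for histidine genes. In each pathway the gene with the largest mean in size was taken. Oat, the ornithine aminotransferase that makes the same intermediate as Prodh, had -1.47, -1.10, -1.32 and -1.88. Its mean was -1.44 ± 0.33 (SD, n = 4 arrays), or 2.72-fold lower, and its adjusted p of 0.0703 was the lowest of the 62. Oat and Prodh thus had values of opposite sign on every array. Hal, the ammonia-lyase that starts histidine breakdown ahead of Uroc1, had 1.44, 1.53, 0.88 and 1.49, a mean of 1.33 ± 0.31 and adjusted p = 0.0826. Hal, Uroc1 and Ftcd, which act one after another apart from the unmeasured Amdhd1, thus all lay above 0 on every array. Aldh1l1, a folate enzyme singled out for its observed value, had a mean of 1.21 ± 0.12 and adjusted p = 0.075.

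Hao1, the glycolate oxidase that makes the glyoxylate used by Agxt, had 0.77, 1.26, 1.54 and 1.43, a mean of 1.25 ± 0.34 (SD, n = 4 arrays) and adjusted p = 0.105. Hao1 was therefore above 0 and Agxt below 0 on every array. Ethe1, a mitochondrial enzyme that oxidises sulfur from hydrogen sulfide, had 0.98, 1.52, 1.16 and 1.70, a mean of 1.34 ± 0.33 and adjusted p = 0.0831, on the other side of 0 from Csad, Cdo1 and Cth. In tryptophan breakdown, Ido2, which opens the indole ring as Tdo2 does, had 0.36, 1.31, 1.47 and 1.42 with a mean of 1.14 ± 0.52 and adjusted p = 0.233. Qprt, which takes quinolinate to NAD and was picked here for its observed value, had a mean of 1.14 ± 0.20 and adjusted p = 0.102. The remaining genes taken by this rule were Qdpr, which regenerates the cofactor of phenylalanine hydroxylase, at 0.79 ± 0.30, Pipox, an oxidase of pipecolate and sarcosine, at 0.64 ± 0.14, and Acat1, the thiolase of isoleucine breakdown and ketone metabolism, at -0.89 ± 0.22. All 3 had one sign on all arrays, and their adjusted p-values were 0.362, 0.449 and 0.215.

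**Figure D4:**
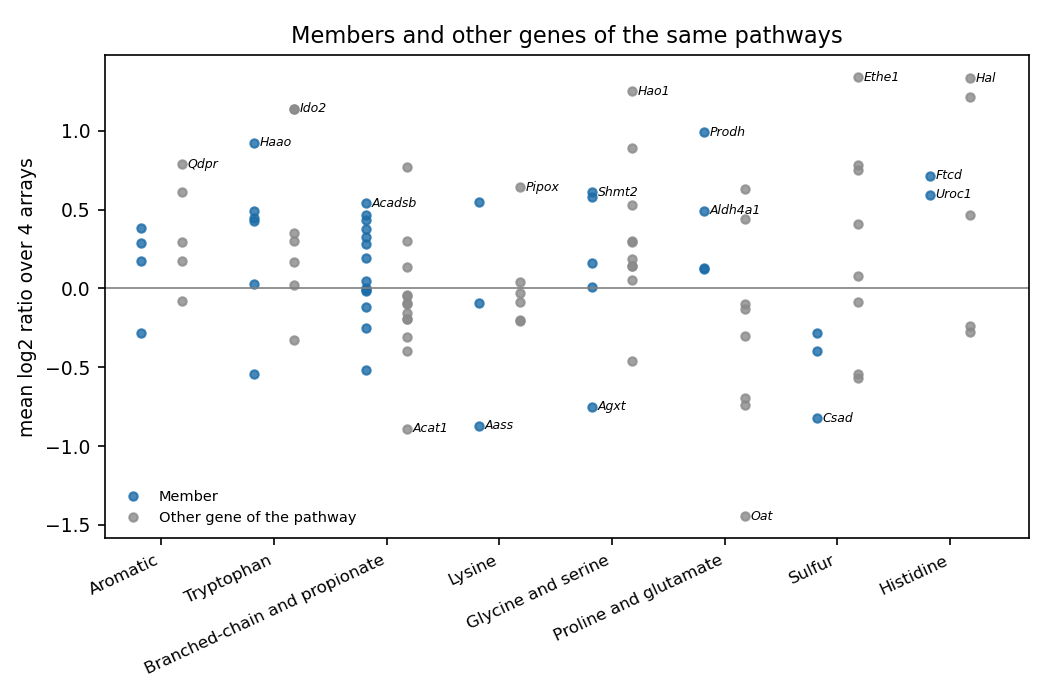
Mean log2 ratio over the 4 arrays (vertical axis) of the members (blue) and of other genes of the same pathways (grey), by branch. Named are members with an unadjusted p under 0.05 and, per branch, the other gene with the largest mean in size. Oat lay lowest at -1.44, and Ethe1 and Hal highest at 1.34 and 1.33.

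Marker lists of liver zones and cells were read beside these values. Amino acid breakdown is known to be more active in periportal than in pericentral hepatocytes. Of 9 periportal markers listed, 6 were measured, with a median of 0.66 and array medians of 0.57 to 0.72. The cytochrome P450 gene Cyp2f2 passed the test as deposited, at 1.77 ± 0.23 (SD, n = 4 arrays) and adjusted p = 0.0379, but had a mean of -0.18 with arrays 3 and 4 turned, and Pck1 stood at -1.54. The 9 pericentral markers had a median of -0.13 and array medians of -0.43 to -0.07. Of their means, 2 were above 0, Cyp1a2 at 1.08 and Rgn at 0.78, and 7 were below, down to Lhpp at -1.63. These lists contain Hal and Oat, named above. Red blood cell markers had a median of 0.65 over 5 genes, with array medians from 0.33 to 1.15, and hepatocyte markers -0.04 over 8 genes, with array medians from -0.20 to 0.42. Of the 8 hepatocyte markers, 4 had means above 0 and 4 below, from Hnf4a at -0.65 to Ttr at 0.97. The albumin gene Alb had 0.86, 0.81, -0.75 and -0.89 on arrays 1 to 4. Its mean was 0.01 as deposited and 0.83 with arrays 3 and 4 turned. Among the red blood cell markers Alas2, the erythroid enzyme of haem synthesis, passed the test as deposited at 2.45 ± 0.48 (SD, n = 4 arrays) and adjusted p = 0.0324, and Car2 stood at -1.35. With arrays 3 and 4 turned, Alas2 stood at 0.014, and the list medians were -0.084 for periportal, -0.046 for pericentral, -0.057 for red blood cell and 0.12 for hepatocyte markers. As deposited, the other marker lists had medians of 0.05 for Kupffer cells, -0.11 for endothelial cells and -0.02 for stellate cells. Bile duct cells stood at -0.11, lymphocytes at 0.23 and neutrophils at -0.06, and no gene of these lists passed the adjusted threshold. The part of liver zones, blood or other cells in the values of the amino acid genes was not tested.

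Each wild-type animal was used on 2 arrays, which also had opposite dyes, so sharing an animal and swapping dyes cannot be told apart here. When arrays that share a wild-type mouse were treated as a random block, 2 of the 41 genes passed the adjusted threshold, Prodh at adjusted p = 0.0340 and Aass at adjusted p = 0.0498, where 1.02% of all genes passed. The correlation that this fit used between arrays of one wild-type animal was -0.367, below 0, which makes its p-values smaller than those of a fit without it.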

How the data were processed

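The authors deposited 1 table of log2 ratios, with 43379 probes on each of 4 arrays and 0 missing values. The submitters' processing notes name limma without a version. Background correction and normalization by the authors: not given in the sources used here. Log base and ratio direction are likewise unstated, and log2 was taken from the range of the values and from limma's convention. Here, probes with exactly 1 gene symbol in the platform annotation (33653 probes, while 56 had several symbols and 9670 none) were averaged per gene. All 19087 genes were fitted with limma 3.58.1 in R 4.3.3 (intercept only, eBayes, two-sided, Benjamini-Hochberg, threshold 0.05). The fit was also run on simulated data with independent normal noise. Those data held no shared wild-type animals, dye effects or positional trends, so they do not show how the p-values behave here.

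The members, branches and lists were chosen with earlier results of these data known. Per-array values are given for members past the adjusted threshold or with an unadjusted p under 0.05, for the highest and lowest of each branch, and for members with probes of opposite sign over 1 apart, and means for the rest. Of the other pathway genes, those past the threshold or largest in size per branch are given. Aldh1l1 and Qprt met neither rule and were added for their observed values.

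The alternatives were arrays 3 and 4 turned, a random block for arrays that share a wild-type mouse, a dye coefficient, a common spread, median centring, subtraction of a running median over 11 x 11 spots, the median over probes, and leaving out each array. Only 2 wild-type animals were used, so the 4 arrays are not fully independent. The number of arrays limits the precision.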

Additional observations from a re-analysis of the deposited data

Results flagged for a closer look

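Of 38 genes and branch medians examined, 3 had 1 array set apart by a gap that made up most of their spread over the 4 arrays. Chance gives about 1 in 20. Cdo1 stood at -0.59 on array 4, with the other arrays at -0.22 to -0.15. Ido2 stood at 0.36 on array 1, with the others at 1.31 to 1.47. Hal stood at 0.88 on array 3, with the others at 1.44 to 1.53.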

How the results depend on the processing

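Turning arrays 3 and 4 left 0 of all genes past the threshold and 0 members with an unadjusted p under 0.05. It moved the median of the members to -0.022 and the branch medians to -0.12 (aromatic), -0.044 (tryptophan), -0.11 (propionate), -0.066 (glycine and serine), 0.044 (proline and glutamate), -0.063 (sulfur) and 0.22 (histidine). It reversed the sign of Fah (-0.12), Bckdk (0.12), Mccc1 (-0.34), Acadsb (-0.30), Pcca (-0.11), Pccb (-0.23), Aass (0.032), Aldh7a1 (-0.41), Shmt2 (-0.074), Aldh4a1 (-0.0059), Cdo1 (0.12), Ido2 (-0.30), Hao1 (-0.23), Oat (0.16) and Ethe1 (-0.092). With a random block for arrays that share a wild-type mouse, 194 genes passed, among them 2 members and 6 other pathway genes, and 20 members had an unadjusted p under 0.05, or 48.8%, against 13% of all genes. A common spread gave 15 genes and subtraction of the positional trend 122, with 5 other pathway genes and medians of 0.47 for tryptophan, 0.09 for aromatic and 0.0275 for lysine genes. The median over probes took the propionate median to 0.0491. Leaving out each array gave 0 to 34 genes, with 0 when array 2 or array 4 was left out. In these fits 7 to 10 members had an unadjusted p under 0.05, or 17.1% to 24.4%, against 4.85% to 7.5% of all genes. Of the 10 members with such a p in the main fit, 6 to 8 kept it. Branch medians then ran from 0.37 to 0.43 for tryptophan, -0.0398 to 0.185 for the branched chain, 0.11 to 0.34 for glycine and serine (highest without array 1), -0.19 (without array 3) to 0.0002 (without array 4) for lysine, and 0.17 to 0.34 for propionate (highest without array 3). Mccc1 ran from -0.0398 to 0.52 and Pccb from -0.0716 to 0.17, both below 0 without array 3. Bckdk reached -0.31 without array 4, Aldh7a1 0.32 without array 3 and Glud1 0.0463 without array 1. The 10 members with an unadjusted p under 0.05 kept their sign in all alternatives apart from turning, where 6 kept it. As 9 of these 10 had one sign on all 4 arrays, leaving out an array could not reverse those 9. The random block and the dye coefficient left their means unchanged. A kept sign in these fits is therefore no added support. The cause of the differences between the alternatives was not tested. Fits that left out an array had fewer degrees of freedom than the main fit. They gave 34, 0, 9 and 0 genes past the threshold without arrays 1, 2, 3 and 4. The alternatives for the unadjusted count and for the other pathway genes and marker lists were chosen after seeing the data. No paired analysis was possible because each deposited ratio already sets a mutant against a wild-type mouse on 1 array, which leaves no other group of ratios to pair by replicate number.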
